A study of Rattus norvegicus with 16 samples.

Results

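The genes described here are the zinc finger protein (Zfp) genes of the rat prefrontal cortex (PFC), measured after acute footshock (FS). They were selected on 2 things. The platform annotation had to give a probe set a single symbol made of Zfp and a number, leaving out Zfp36, and the mean over the 16 arrays had to be above 4 on the log2 scale. A gene with more than 1 probe set was represented by that of highest mean. Of 187 Zfp genes named in the annotation, 153 passed and 34 had a mean at or under 4. They were set beside all 10423 genes that passed the same filter. The FS group (labelled Stress) comprised 8 adult male Sprague-Dawley rats killed right after a 40 min session of inescapable shock, in which 0.8 mA was applied for 20 min of the time. The control group comprised 8 rats of the same strain left undisturbed in the home cage, so the shocks cannot be told apart from the rest of the session. Each array is 1 labelled replicate, and p-values measure the spread between these arrays.

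Most Zfp genes encode proteins with tandem C2H2 zinc fingers, in which cysteines and histidines hold a zinc ion and each finger contacts a few bases of DNA. Many carry a KRAB domain, which recruits the corepressor Trim28 and, with it, histone methylation and heterochromatin proteins, and many of these repress transposable elements. Others activate promoters, bind RNA or take part in ubiquitin signalling. In the brain, individual members are known for roles in neurogenesis, myelination and synaptic gene regulation. The family arose by repeated gene duplication, so a probe set can also detect transcripts of near-identical copies, and the values of close paralogs are uncertain in that respect.

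No Zfp gene differed between FS and control rats after adjustment over all probe sets, and most of those past an unadjusted threshold were lower in FS rats. With limma, 0 of 153 members passed an adjusted p of 0.05 (0% of all genes tested), and the smallest adjusted p was 0.495. At an unadjusted p under 0.05, 13 members were lower in FS rats, which is 8.50% of the members, against 5.92% of all genes. Zfp641, whose FS mean was under 4, passed the filter through its controls, and without it 12 of 152 members (7.89%) were lower. Another 2 members were higher, which is 1.31%, against 3.6% of all genes. At an unadjusted p under 0.01, 4 members were lower (1.11% of all genes) and 0 were higher (0.969% of all genes). The exact permutation test, two-sided over the 12870 ways to assign the arrays, gave 16 members with an unadjusted p under 0.05 (8.99% of all genes). Its smallest adjusted p among the members was 0.512.

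**Figure D1:**
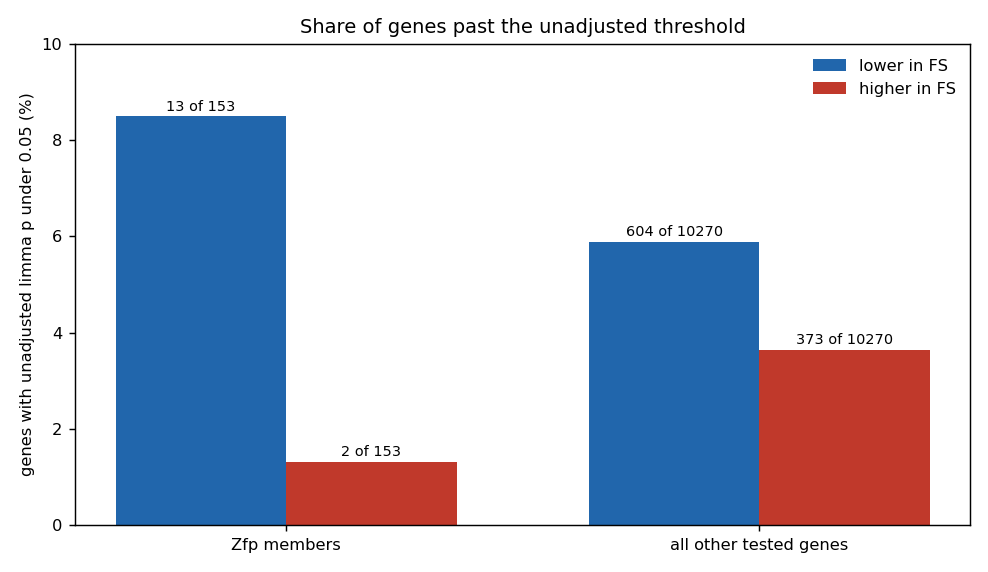
Share of genes (%) with an unadjusted limma p under 0.05, lower (blue) or higher (red) in FS rats, for the 153 Zfp members and for the 10270 other genes tested, with counts above the bars. The bars are counts of genes and carry no error bars: 13 members were lower and 2 higher, against 604 and 373 of the other genes.

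The members' median lay at that of all genes. A negative difference was seen for 88 members (57.5%), and for 59% of all genes. The median difference was -0.02 for the members and -0.02 for all genes, and the quartiles of the members lay at -0.08 and 0.04. The median size of a difference, whatever its sign, was 0.06 for members and 0.07 for all genes, while the median SE of a member was 0.07. In 7 members all 8 FS arrays lay below the control mean (2.21% of all genes), and these were Zfp13, Zfp668, Zfp398, Zfp61, Zfp251, Zfp7 and Zfp94. In 3 members, Zfp24, Zfp609 and Zfp958, all 8 lay above it (2.23% of all genes). In 0 members were the 2 groups of 8 arrays free of overlap (0.048% of all genes).

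**Figure D2:**
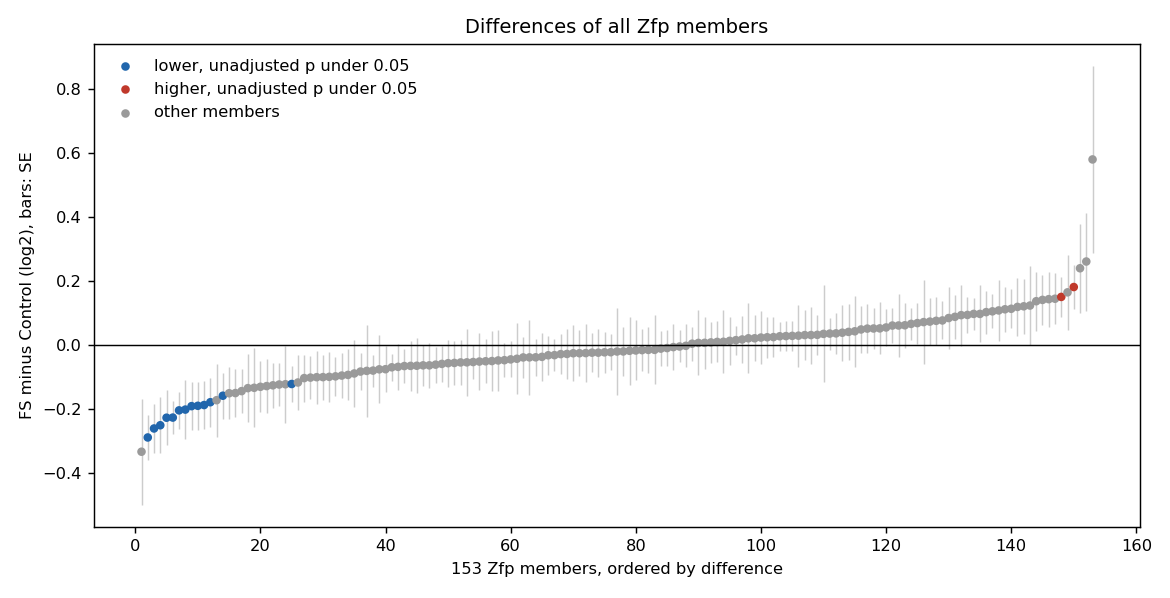
FS minus control difference on the log2 scale (points) with its SE (bars) for the 153 Zfp members, ordered by difference. The values run from -0.33 for Zfp575 to 0.58 for Zfp521, with the members at an unadjusted p under 0.05 in blue (13 lower) and red (2 higher).

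Levels of the members lay toward the lower side of all genes tested. The deposited values ran from 1.52 to 12.79. The members' means ran from 4.08 to 9.85 with a median of 5.52, and those of all genes tested from 4.00 to 12.66 with a median of 6.37. The filter sets the lower end of both. The highest means were those of Zfp365 (9.85), Zfp91 (9.42), Zfp207 (8.73), Zfp483 (7.77) and Zfp180 (7.68), although levels of different probe sets cannot be ranked strictly on this platform. Just inside the threshold lay Zfp839 (4.08), Zfp641 (4.08) and Zfp300 (4.14), and just outside it Zfp474 (4.00), Zfp90 (3.98) and Zfp112 (3.96). All 16 arrays were above 4 for 145 members. Zfp641 was the 1 member with a group mean under 4, at 3.99 in FS rats and 4.18 in controls. The pooled within-group SD had a median of 0.15 for members and 0.15 for all genes. It was smallest for Zfp143 (0.07) and largest for Zfp521 (0.65), Zfp575 (0.37), Zfp667 (0.34), Zfp467 (0.33) and Zfp703 (0.32).

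The 4 members with an unadjusted p under 0.01 were Zfp398, Zfp13, Zfp382 and Zfp668, all lower in FS rats. Their promoters are shown because these genes carry the clearest differences of the family. Each is a window of 300 bases around the RefSeq start (assembly GRCr8), most of it before the start, 5′ to 3′ on the strand of the gene. Capitals mark matches on either strand to the GC box GGGCGG, the ETS core CCGGAA and the CRE core TGACG, and the marked matches do not overlap. The windows are chr4:78180376-78180675 on the plus strand for Zfp398, chr10:13128194-13128493 on the minus strand for Zfp13, chr1:94504844-94505143 on the plus strand for Zfp382 and chr1:191914862-191915161 on the minus strand for Zfp668.
Zfp398: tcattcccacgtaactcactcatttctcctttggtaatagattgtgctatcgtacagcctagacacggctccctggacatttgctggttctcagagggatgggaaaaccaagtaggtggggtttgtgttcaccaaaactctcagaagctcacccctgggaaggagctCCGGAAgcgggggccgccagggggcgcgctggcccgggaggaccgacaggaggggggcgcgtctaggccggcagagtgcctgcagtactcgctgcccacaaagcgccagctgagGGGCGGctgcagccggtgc
Zfp13: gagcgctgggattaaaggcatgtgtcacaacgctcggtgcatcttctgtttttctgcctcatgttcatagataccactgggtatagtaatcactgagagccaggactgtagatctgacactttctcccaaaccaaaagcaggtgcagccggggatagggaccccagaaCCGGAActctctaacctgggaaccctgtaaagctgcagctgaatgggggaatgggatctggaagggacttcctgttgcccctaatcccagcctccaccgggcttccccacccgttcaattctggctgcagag
Zfp382: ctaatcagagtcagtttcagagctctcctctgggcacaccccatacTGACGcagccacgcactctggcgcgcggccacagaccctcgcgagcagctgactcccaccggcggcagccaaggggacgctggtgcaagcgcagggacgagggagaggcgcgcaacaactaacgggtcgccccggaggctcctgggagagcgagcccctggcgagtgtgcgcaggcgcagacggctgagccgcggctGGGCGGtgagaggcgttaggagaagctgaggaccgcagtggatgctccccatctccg
Zfp668: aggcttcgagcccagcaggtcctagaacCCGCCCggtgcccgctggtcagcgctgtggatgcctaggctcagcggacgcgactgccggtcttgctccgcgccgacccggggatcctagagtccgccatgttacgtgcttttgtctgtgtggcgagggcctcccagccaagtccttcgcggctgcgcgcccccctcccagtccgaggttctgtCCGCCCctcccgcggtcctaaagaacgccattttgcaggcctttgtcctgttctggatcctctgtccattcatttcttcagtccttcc

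The 4 promoters differed in base composition. GC content was 61.3% with 17 CpG in Zfp398, 53.7% with 7 CpG in Zfp13, 68% with 28 CpG in Zfp382 and 64% with 25 CpG in Zfp668. The Zfp398 window held 1 ETS core and 1 GC box, and that of Zfp13 held 1 ETS core alone. The Zfp382 window held 1 CRE core and 1 GC box, and that of Zfp668 held 2 GC boxes. None of these motifs was shared by all 4.

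Zfp398, whose human counterpart ZNF398 has been described as a partner of estrogen receptor alpha, had the smallest p of the family. Its control arrays ran from 5.79 to 6.10 with a median of 6.03, and its FS arrays from 5.66 to 5.88 with a median of 5.75. All 8 FS arrays lay below the control mean and 6 lay below every control array, with an overlap left by 2 low controls. The difference was -0.23 ± 0.05 (log2, SE, n = 8 per group, limma p = 0.000448, adjusted p = 0.495, exact permutation p = 0.00109).

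Zfp13 had the lowest difference of these 4 genes. Controls ran from 6.08 to 6.35 with a median of 6.21, and FS rats from 5.66 to 6.18 with a median of 5.88. Again 6 FS arrays were below every control, and the 2 highest FS arrays reached into the control range. The difference was -0.29 ± 0.07 (SE, n = 8 per group, limma p = 0.000626, adjusted p = 0.495, exact permutation p = 0.00155).

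Zfp382 encodes a KRAB repressor. Its control arrays lay between 5.71 and 5.99 with a median of 5.81, and its FS arrays between 5.50 and 5.85 with a median of 5.61. In FS rats 7 arrays were below every control and 1 was above the control mean. The difference was -0.20 ± 0.06 (SE, n = 8 per group, limma p = 0.00242, adjusted p = 0.501, exact permutation p = 0.00342).

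Zfp668, whose human counterpart takes part in the DNA damage response, lay between 4.90 and 5.42 in controls with a median of 5.22. In FS rats it lay between 4.71 and 5.07 with a median of 4.89. All 8 FS arrays were below the control mean, and 4 of them were below every control. The difference was -0.26 ± 0.08 (SE, n = 8 per group, limma p = 0.00319, adjusted p = 0.501, exact permutation p = 0.00668).

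**Figure D3:**
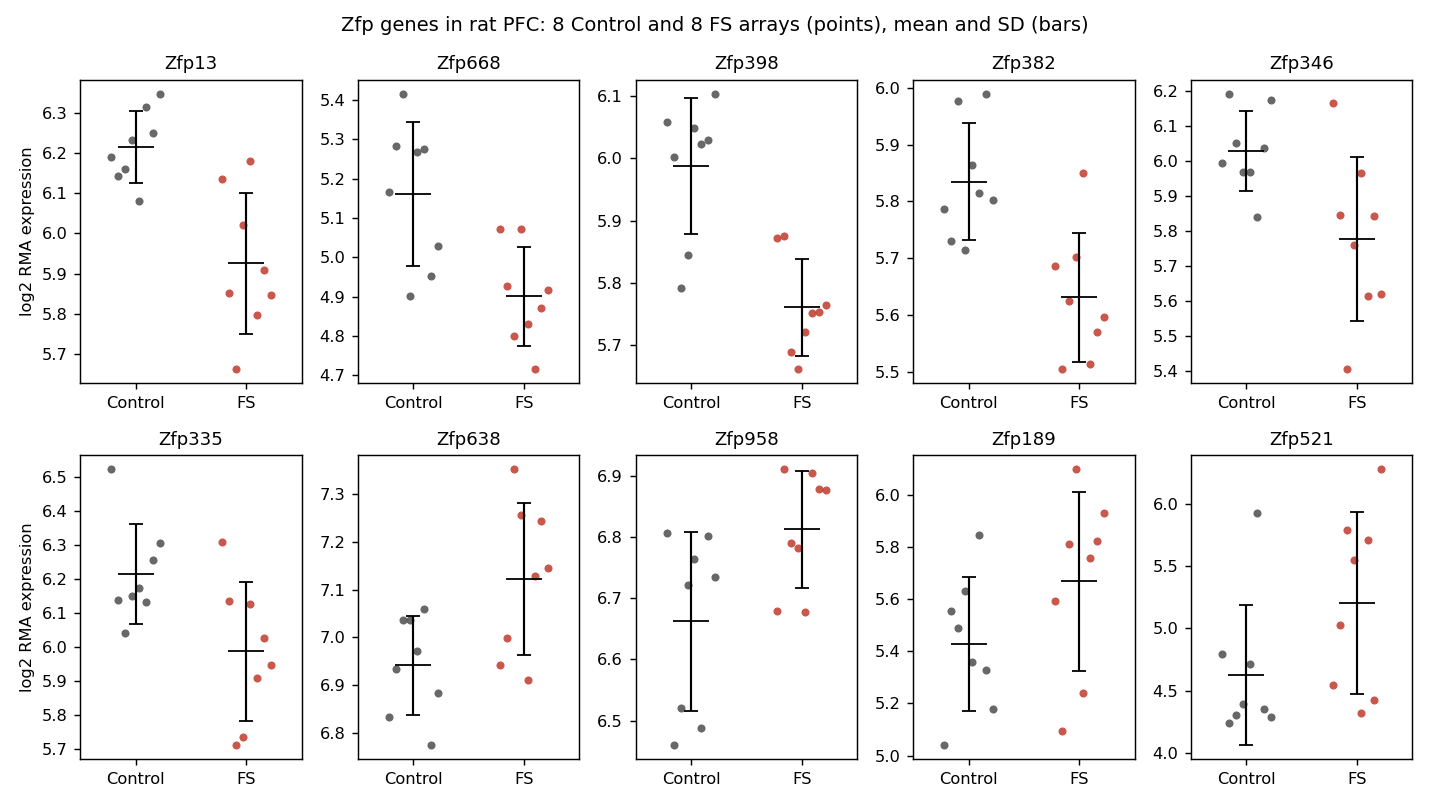
Log2 RMA expression of 10 Zfp genes in each of 8 control (grey) and 8 FS (red) arrays, with the group mean (long line) and SD (bars). Each panel has its own axis, which does not start at 0; the groups overlap in every panel, and in Zfp398 and Zfp13 6 FS arrays lie below every control.

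Another 9 members were lower at an unadjusted p between 0.01 and 0.05, namely Zfp346, Zfp335, Zfp358, Zfp61, Zfp641, Zfp251, Zfp180, Zfp523 and Zfp574. Their differences ran from -0.25 for Zfp346 to -0.12 for Zfp574. For Zfp358 the exact permutation p was 0.0614, and the other 8 stayed under 0.05 in that test as well. Zfp61 ran from 6.28 to 6.79 in controls with a median of 6.51, and from 6.02 to 6.50 in FS rats with a median of 6.37. All 8 of its FS arrays were below the control mean but 1 was below every control, and the difference was -0.19 ± 0.07 (SE, n = 8 per group, exact permutation p = 0.0196). Zfp641, at the edge of the filter, differed by -0.19 ± 0.08 and Zfp251 by -0.19 ± 0.08. Zfp575 had the lowest difference of all members, -0.33 ± 0.17, with an exact permutation p of 0.0917. Its controls spanned 4.79 to 5.45 with a median of 5.11 and its FS arrays 4.17 to 5.64 with a median of 4.85, so the FS arrays ran past both ends of the control range.

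In the other direction, Zfp638 and Zfp958 were the 2 members higher in FS rats at an unadjusted p under 0.05. Zfp638 encodes a nuclear protein that binds nucleic acids, known as NP220, which takes part in the silencing of retroviral DNA. It ran from 6.77 to 7.06 in controls with a median of 6.95, and from 6.91 to 7.35 in FS rats with a median of 7.14. Of the FS arrays 7 were above the control mean, and 3 controls lay below every FS array. The difference was 0.18 ± 0.07 (SE, n = 8 per group, limma p = 0.0157, adjusted p = 0.509, exact permutation p = 0.0191). Zfp958 ran from 6.46 to 6.81 in controls with a median of 6.73, and from 6.68 to 6.91 in FS rats with a median of 6.83. All 8 FS arrays were above the control mean, and the difference was 0.15 ± 0.06 (SE, n = 8 per group, limma p = 0.0292, adjusted p = 0.519, exact permutation p = 0.0311). A second probe set of Zfp958 gave 0.08 ± 0.06 with an unadjusted limma p above 0.05.

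The largest difference of the family was that of Zfp521, a regulator of entry into the neural lineage in mouse. Controls ran from 4.24 to 5.93 with a median of 4.37, and FS rats from 4.32 to 6.28 with a median of 5.29. Of the FS arrays 5 were above the control mean and 3 below it, and the groups overlapped over nearly the whole range. The difference was 0.58 ± 0.29 (SE, n = 8 per group, limma p = 0.0630, adjusted p = 0.542, exact permutation p = 0.0981). Zfp667, the rat gene also called Mipu1, followed with 0.26 ± 0.15. Zfp189 differed by 0.24 ± 0.14 (exact permutation p = 0.134). The remaining members of the 10 highest were Zfp462 (0.16 ± 0.12), Zfp652 (0.14 ± 0.08), Zfp536 (0.14 ± 0.09), Zfp300 (0.14 ± 0.08) and Zfp57 (0.14 ± 0.09), none with an unadjusted p under 0.05.

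By known roles, genes listed for the nervous system had mostly positive differences, and none was higher at the unadjusted threshold. Of 19 listed genes, 18 were members. At an unadjusted p under 0.05, 1 (Zfp335) was lower and 0 were higher, against 5.92% and 3.6% of all genes. Positive differences were seen for 12 (66.7%), beside 41.0% among all genes, and the median was 0.08. With the striatal score in the fit the median of these 18 was 0.0073. In that fit 6 of the 18 differences were negative, as in the fit without it, beside 5321 of all 10423 genes. Zfp335, required for neurogenesis in the cortex, ran from 6.04 to 6.52 in controls with a median of 6.16 and from 5.71 to 6.31 in FS rats with a median of 5.99. Of its FS arrays 5 were below every control, and the difference was -0.23 ± 0.09 (SE, n = 8 per group, limma p = 0.0164, adjusted p = 0.509, exact permutation p = 0.0233). Zfp189, studied in mouse PFC for its part in resilience to stress, ran from 5.04 to 5.85 in controls with a median of 5.42. In FS rats it ran from 5.10 to 6.10 with a median of 5.78, and 6 of 8 arrays were above the control mean. Zfp365, which encodes a partner of the DISC1 protein, ran from 9.51 to 10.14 in controls with a median of 9.97, and from 9.31 to 10.06 in FS rats with a median of 9.82. Its groups overlapped over most of their range, and the difference was -0.17 ± 0.11 (SE, n = 8 per group, exact permutation p = 0.183).

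Chromatin and promoter regulators showed smaller values. Of 15 listed genes, 10 were members, 0 passed an unadjusted p of 0.05 in either direction, and the median was -0.0014. At that threshold 5.92% of all genes were lower and 3.6% higher. Zfp57, a KRAB protein that maintains imprinted methylation, differed by 0.14 ± 0.09, and Zfp143, an activator of many housekeeping promoters, by -0.07 ± 0.04. Zfp281, a regulator of pluripotency genes, differed by -0.06 ± 0.07 and Zfp384 by -0.06 ± 0.06. Among proteins of RNA, ribosomes, ubiquitin and the spindle, 9 of 13 listed genes were members. Of these 1 was lower (Zfp346) and 1 higher (Zfp638), with a median of 0.02. With so few genes, these counts cannot be set apart from the shares of all genes. Zfp346 binds double-stranded RNA. Its controls ran from 5.84 to 6.19 with a median of 6.02, and its FS arrays from 5.40 to 6.16 with a median of 5.80, 4 of them below every control. It differed by -0.25 ± 0.09 (SE, n = 8 per group, limma p = 0.0109, adjusted p = 0.509, exact permutation p = 0.0146). Zfp207, a spindle assembly protein, differed by 0.10 ± 0.05 (limma p = 0.0697, exact permutation p = 0.0444), and Zfp830, a splicing-related protein, by 0.07 ± 0.06.

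The measured genes of the corepressor machinery that KRAB proteins recruit held 0 past an unadjusted limma p of 0.05. At that threshold 5.92% of all genes were lower and 3.6% higher. Of 28 listed genes, 24 were measured, while Setdb1, Suv39h1, Uhrf1 and Rbbp4 were not among the genes tested. There were 15 positive and 9 negative differences with a median of 0.01, beside 41.0% positive among all genes. Trim28 itself differed by 0.0071 ± 0.050. The ends of the list were Mta1 (-0.11 ± 0.05) and Mbd2 (0.12 ± 0.06), subunits of the NuRD deacetylase complex. In the exact permutation test Mta1 had an unadjusted p of 0.0389 and an adjusted p of 0.565. With the striatal score in the fit Mta1 differed by -0.06 ± 0.05 and Mbd2 by 0.03 ± 0.05.

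Several lists of cell type markers differed between the groups in 1 direction, and the Zfp values are given beside them. A list score averages its genes after each was centred on its mean of the 16 arrays. Of 20 markers of striatal medium spiny neurons, 17 were measured and all 17 were higher in FS rats. Their score ran from -0.84 to 1.59 in controls and from -0.90 to 1.32 in FS rats. All 17 measured of 20 oligodendrocyte and myelin markers were higher as well, with scores from -0.59 to 0.21 in controls and from -0.01 to 0.34 in FS rats. Of 13 markers of cortical glutamatergic neurons 12 were measured and all 12 were lower, with scores from -0.68 to 0.41 in controls and from -0.83 to 0.32 in FS rats. All 10 measured of 11 meningeal markers were higher, from -0.61 to 0.50 in controls and from -0.71 to 1.49 in FS rats. Other lists were mixed: 6 of 9 astrocyte, 4 of 9 microglial, 3 of 8 endothelial, 4 of 7 smooth muscle and pericyte and 6 of 9 interneuron markers were higher in FS rats. In such bulk tissue, fewer cells of a type and less RNA per cell cannot be told apart.

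Zfp521 had the highest Pearson's r with the striatal score among the members. The 6 controls with scores from -0.84 to -0.61 had Zfp521 between 4.24 and 4.71. Control replicate 6, with the highest score of 1.59, had 5.93. The 4 FS arrays with scores from 0.73 to 1.32 had Zfp521 between 5.55 and 6.28, while FS replicates 5 and 7, with scores of -0.59 and -0.90, had 4.32 and 4.42. Over the 16 arrays r was 0.95 and rho 0.89 (permutation p = 1e-05 and 2e-05 from 100000 resamples, the first the smallest possible, adjusted over 10423 genes 0.000327 and 0.00152). Without Control replicate 6 and FS replicate 3, the arrays farthest from the median score, r was 0.94, and it was 0.98 within controls and 0.93 within FS rats. With that score in the fit, its FS minus control difference was 0.04 ± 0.11.

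Other members lay along the same axis in both directions. Zfp365 had an r of -0.82 and a rho of -0.70 (permutation p = 0.00014 and 0.00319, adjusted over all genes 0.00157 and 0.0212), which was -0.71 without the same 2 arrays, -0.91 within controls and -0.73 within FS rats. With the striatal score in the fit its difference was -0.0011 ± 0.083. Zfp652 had an r of 0.89 and a rho of 0.80 (permutation p = 2e-05 and 0.00034, adjusted over all genes 0.000472 and 0.00557), and its r was 0.83 without the 2 arrays, 0.86 within controls and 0.89 within FS rats. Its difference went from 0.14 ± 0.08 to 0.02 ± 0.05 under the covariate. In all, 31 of 153 members (20.3%) had an r with an adjusted permutation p under 0.05, 15 positive and 16 negative, against 32.1% of all genes. The score and the genes were measured on the same arrays.

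Of the 4 members with the smallest p, none had such an r. For Zfp398 r was -0.30 and rho -0.32 (permutation p = 0.246 and 0.227, adjusted over all genes 0.381 and 0.380), and r was -0.42 without the 2 farthest arrays, 0.24 within controls and -0.22 within FS rats. Its difference was -0.23 ± 0.06 with the striatal score in the fit and -0.26 ± 0.07 with the myelin score. For Zfp13 r was -0.50 and rho -0.40 (permutation p = 0.0522 and 0.123, adjusted over all genes 0.121 and 0.247), and r was -0.70 without the 2 arrays, 0.35 within controls and -0.67 within FS rats. Its difference was -0.25 ± 0.07 with the striatal score in the fit, and with the myelin score it was -0.30 ± 0.09. Zfp668 differed by -0.28 ± 0.08 and Zfp382 by -0.18 ± 0.06 with the striatal score, and by -0.25 ± 0.10 and -0.14 ± 0.07 with the myelin score. The differences of Zfp251 and Zfp346 moved further, to -0.09 ± 0.06 and -0.14 ± 0.07 with the striatal score and to -0.04 ± 0.08 and -0.16 ± 0.11 with the myelin score.

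**Figure D4:**
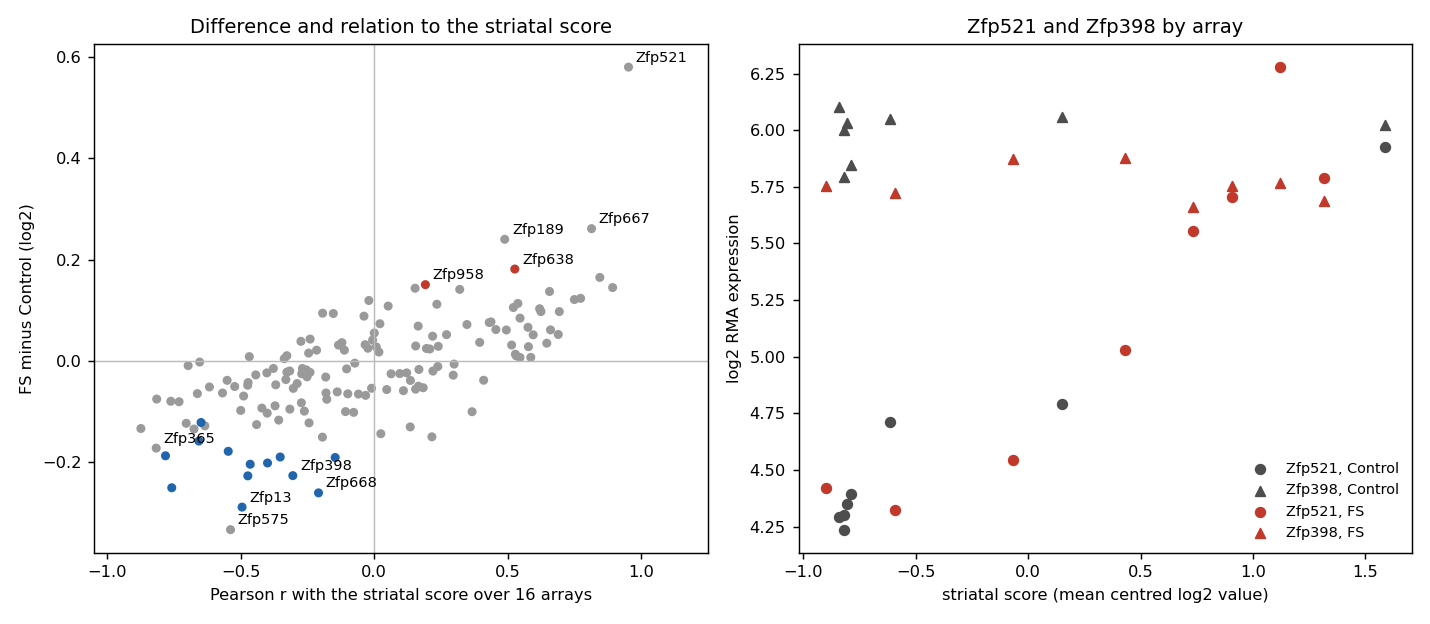
Left: for each of the 153 Zfp members, the FS minus control difference (log2) against Pearson's r of its values with the striatal score over the 16 arrays, with members at an unadjusted p under 0.05 in blue (lower) and red (higher). Right: log2 RMA expression of Zfp521 (circles) and Zfp398 (triangles) against the striatal score in each control (grey) and FS (red) array; Zfp521 climbs from 4.24 to 6.28 along the score, and Zfp398 stays between 5.66 and 6.10.

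With the striatal score in the fit, 9 members were lower and 2 higher at an unadjusted p under 0.05, against 2.27% and 2.03% of all genes. Of the 13 lower members, 5 stayed under that threshold (Zfp13, Zfp668, Zfp398, Zfp382 and Zfp61) and all 13 stayed below 0. Of the 2 higher members Zfp958 stayed under the threshold, at 0.16 ± 0.07. With the myelin score, 9 were lower and 2 higher (1.66% and 1.15% of all genes). Of the 13 lower members 6 stayed under the threshold (Zfp13, Zfp668, Zfp398, Zfp335, Zfp61 and Zfp641), Zfp382 did not, and all 13 stayed below 0, while neither Zfp638 nor Zfp958 stayed. The 13 lower and 2 higher members were picked on these same arrays, so the numbers that stayed are no separate support. How many of all genes past the threshold stayed was not counted. The part of the meningeal and glutamatergic lists in these differences was not tested.

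Control replicate 6 had the highest striatal score of the 16 arrays (1.59) and the lowest glutamatergic score of the controls (-0.68). Without it, 14 members were lower and 8 higher, against 10.8% and 6.04% of all genes. Without it and FS replicate 3, a pair left out after seeing the data, 12 were lower and 5 higher (6.31% and 4.63% of all genes). Then 11 of the 13 lower members and Zfp638 stayed under the threshold, and Zfp521 differed by 0.68. These members were picked with nearly the same arrays, so that count is no separate support either.

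Members that lie next to each other in the genome could be compared for 150 of the 153, found by gene ID in the RefSeq table (assembly GRCr8). There were 21 runs of members no more than 3 genes apart, holding 55 members. The longest run held 7: Zfp786 (-0.10), Zfp398 (-0.23), Zfp282 (-0.12), Zfp212 (-0.02), Zfp777 (-0.04), Zfp746 (-0.03) and Zfp467 (0.03). In that run Zfp398 alone had an unadjusted p under 0.05. The neighbours Zfp251 and Zfp7 differed by -0.19 and -0.14, and all 8 FS arrays of both were below their control means. Zfp7 was not under the unadjusted threshold (limma p = 0.0527, exact permutation p = 0.0583). By contrast, Zfp382 (-0.20) lay in a run with Zfp74 (-0.03), Zfp14 (-0.05), Zfp566 (0.06) and Zfp260 (-0.0025), and Zfp668 (-0.26) lay beside Zfp646 (-0.04). After group means were removed, the correlation over the 16 arrays had a median of 0.16 for the 34 neighbouring pairs and 0.08 for all 11628 member pairs, beside 0.07 for all gene pairs. The median was 0.22 for the 78 pairs of the 13 lower members. For the neighbours Zfp251 and Zfp7, both with negative differences, the correlation with group means removed was -0.23. These are descriptions, since all pairs share the same arrays and tissue pieces.

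For 6 members more than 1 probe set passed the filter. The 3 probe sets of Zfp292 gave 0.10 ± 0.09, 0.11 ± 0.09 and 0.05 ± 0.10, and the 2 of Zfp462 gave 0.16 ± 0.12 and 0.27 ± 0.13. Those of Zfp275 gave 0.04 ± 0.06 and 0.11 ± 0.13, those of Zfp507 0.02 ± 0.06 and 0.04 ± 0.07, and those of Zfp111 -0.02 ± 0.11 and 0.0027 ± 0.067. The signs differed between probe sets of Zfp111 alone.

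A promoter was given for 123 members in the RefSeq table. Their median GC content was 58.7%, between the 61.7% of all tested genes with a promoter and the 52.3% of all 27457 promoters. The GC box GGGCGG was in 50.4% of member promoters, 63.7% of those of tested genes and 34.9% of all. The ETS core CCGGAA was in 29.3%, 27.2% and 15.8% of these, and the CRE core TGACG in 32.5%, 31.95% and 21.96%. The core ACTACAA of the motif of ZNF143, the human counterpart of Zfp143, was in 9.76% of member promoters, 4.18% of those of tested genes and 3.40% of all. The hexamer AGAACA of the glucocorticoid response element was in 17.9%, 11.6% and 20.1%. Matches were counted on both strands and describe letters in a window of 300 bases.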

How the data were processed

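RNA from the PFC of 8 FS and 8 control rats had been hybridised to Affymetrix Rat Gene 1.0 ST arrays. The authors normalised the arrays by RMA with oligo (1.58.0), and the deposited values are on a log2 scale. RMA makes the arrays' distributions alike (medians 4.05 to 4.15), so a shift common to most genes cannot be seen. Correlations between arrays were 0.981 to 0.997 and no 2 arrays were identical. The number of arrays limits the precision (median SD 0.14 in controls and 0.15 in FS rats).

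Of 29214 probe sets, 18644 had 1 symbol, 962 several and 9608 none in the annotation used. Those with 1 symbol and a mean above 4 (11352) were fitted with limma (version 3.58.1, R version 4.3.3, lmFit and eBayes, group only), with Benjamini-Hochberg adjustment over all of them. Counts are over 1 probe set per gene. The exact permutation test of the difference of means was two-sided with a smallest p of 0.000155, and it was adjusted in the same way. The fit was tested on simulated data with noise drawn independently for each gene and array. In the real arrays 1 principal component held 47.8% of the variance, so that check does not cover shared variation. Correlations with the striatal score were tested two-sided by permutation of the arrays and adjusted over all genes.

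Named members are the 10 lowest and 10 highest differences, those with an unadjusted p under 0.01, the 5 highest means, the 5 largest SDs, the 3 genes on either side of the filter and up to 4 of each role list. Other members were named after their values were seen, as parts of small counts, runs or probe set comparisons. The members, lists and tests were chosen with earlier results of these data known. Alternatives were other filters, centrings, variance models and probe set rules, a replicate block, score covariates, each array left out and, chosen after seeing the data, the joint removal of Control replicate 6 and FS replicate 3. Promoters and gene order are from RefSeq (assembly GRCr8).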

Additional observations from a re-analysis of the deposited data

Results flagged for a closer look

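In 6 of 66 groups of 8 arrays examined, 2 for each of 32 named members and 2 for the mean centred value of all members, 1 array lay far from the others. Chance alone gives about 1 in 20, but the count cannot be judged by that rate. Some members were named for large SDs or differences, and all groups come from the same 16 arrays. Control replicate 6 accounted for 4 of them. Zfp521 was 5.93 there, with the next control at 4.79. Zfp652 was 6.51 there, with the next control at 6.21. Zfp365 was 9.51 there, with the next control at 9.86. Zfp483 was 8.21 there, with the next control at 7.81. The same array had the highest striatal score of the 16 (1.59). The other cases were Zfp61 in FS replicate 5 (6.02, nearest array 6.35) and Zfp384 in Control replicate 1 (6.72, nearest array 6.50).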

How the results depend on the processing

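Over 30 alternatives, 0 members passed the adjusted threshold in any. The count of lower members stayed between 9 and 18, and the count of negative differences between 63 and 108. The median difference of the members ranged from -0.034 to 0.0035 and was above 0 with the myelin score as a covariate and without Control replicate 3. The count of higher members was less stable. It was 5 without Control replicate 6 and FS replicate 3, 7 with array weights, 1 with the mean over probe sets of a gene and 4 with no filter on low values. With 1 array left out it ran from 1 to 8, with 8 without Control replicate 6, 6 without FS replicate 2, 5 without FS replicate 5, 4 without Control replicate 1 or FS replicate 1, and 1 without Control replicate 2 or FS replicate 6. The share of all genes that were higher moved as well, from 3.6% in the main fit to 6.04% without Control replicate 6. Without that array and FS replicate 3 it was 4.63%. For the other counts in this paragraph the share of all genes is not given, so they are not a result about Zfp genes. The cause of these shifts was not tested. Same-numbered FS and control arrays deviated together (r over 0.1) in 3 of 8 pairs, so the numbers were not taken to pair the rats. With the replicate block, 16 members were lower, 3 higher and 0 passed the adjusted threshold. Of 32 named differences, 25 never changed sign. Zfp462 was -0.069 with the myelin and -0.019 with the striatal score in the fit, Zfp281 was 0.013 and 0.0023 in the same fits, and Zfp365 was 0.036 with the myelin score. Zfp467 was -0.24 and -0.17 and Zfp91 0.050 and 0.062 with the myelin and the striatal score, Zfp483 was -0.058 and Zfp703 0.13 with the striatal score, and with 1 array left out Zfp467 ran from -0.039 to 0.13 and Zfp91 from -0.033 to 0.013. Adjusted p-values of named members ranged from 0.189 to 1.00. A median SE of 0.07 limits what 8 arrays per group can show.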

Other observations

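Other zinc finger families of the same arrays were counted with the same fit, in which 5.92% of all genes were lower and 3.6% higher at an unadjusted limma p under 0.05. Of 19 genes named Zfp with a number and letters, 0 were lower and 2 higher in FS rats at that threshold. These were Zfp36l1 (0.18 ± 0.07), which binds AU-rich mRNA, and Zfp804a (0.52 ± 0.23), whose human counterpart is a psychiatric risk gene. The exact permutation p of Zfp804a was 0.0651, its difference was 0.09 ± 0.10 with the striatal score in the fit, and that of Zfp36l1 was 0.19 ± 0.08. Of 31 Zbtb genes, 3 were lower (Zbtb25, -0.15 ± 0.04, Zbtb17, -0.12 ± 0.06, and Zbtb5, -0.12 ± 0.05) and 1 was higher (Zbtb41, 0.18 ± 0.07), with a median of -0.04. Of 15 Klf genes, Klf16 was lower (-0.25 ± 0.07), and Klf2 (0.32 ± 0.10) and Klf4 (0.17 ± 0.08), regulators known from endothelium, were higher, with a median of -0.02. With the striatal score in the fit, Zbtb25 differed by -0.11 ± 0.04, Zbtb17 by -0.09 ± 0.06 and Zbtb5 by -0.13 ± 0.06. In that fit Zbtb41 differed by 0.12 ± 0.07, Klf16 by -0.20 ± 0.08, Klf2 by 0.35 ± 0.11 and Klf4 by 0.11 ± 0.08. With the myelin score Zbtb25 differed by -0.07 ± 0.05, Zbtb17 by -0.07 ± 0.07 and Zbtb5 by -0.16 ± 0.07. Zbtb41 was then 0.16 ± 0.09, Klf16 -0.23 ± 0.10, Klf2 0.25 ± 0.13 and Klf4 0.07 ± 0.10. None of 5 Znf, 5 Zscan, 4 Zkscan or 6 Sp genes passed an unadjusted p of 0.05. No gene of these families passed the adjusted threshold, and the genes were named after their values were seen.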
